A study of Mus musculus with 6 samples.

Results

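The genes described here were 8 small leucine-rich proteoglycans, Dcn (decorin), Bgn (biglycan), Aspn (asporin), Lum (lumican), Fmod (fibromodulin), Prelp, Omd (osteomodulin) and Ogn (osteoglycin). They were chosen by gene symbol, and all 8 were found among the 56941 genes of the count table. Total RNA had been sequenced from hair follicle stem cells (HFSCs) of dorsal skin from female mice at postnatal day (PD) 68, in 3 libraries titled as WT and 3 as Dab2-cKO, all called biological replicates, to ask how loss of Dab2, an endocytic adaptor protein, alters these cells. Mice of both genotypes were Dab2 fl/fl of the strain B6;129S4-Dab2tm1Cpr/J and received tamoxifen at 75 mg/kg by intraperitoneal injection on 5 consecutive days. Dab2-cKO mice in addition carried K14 Cre, described in the study's methods as K14CreER+/-, whose K14 promoter is known to drive expression in keratinocytes and not in fibroblasts, and WT mice lacked Cre. Skin was held in trypsin, the epidermis was separated from the dermis, and the cells were sorted for CD34 and α6-integrin.

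Small leucine-rich proteoglycans are secreted matrix proteins with a core of leucine-rich repeats, and many of them carry chondroitin, dermatan or keratan sulphate chains. They bind collagen fibrils and set their width and spacing, and several of them also hold growth factors such as TGF-β in the matrix. In skin they are made mainly by dermal fibroblasts, and decorin is the main proteoglycan of the dermis. Dcn, Bgn and Aspn form class I of the family, Lum, Fmod, Prelp and Omd belong to class II, and Ogn is a member of class III.

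The 8 genes lie in few places of the GRCm39 genome. Dcn (chr10:97315275-97358155, plus strand) and Lum (chr10:97400990-97408577, plus strand) are neighbours, with 42.8 kb between them. Aspn (chr13:49697609-49721057), Omd (chr13:49735938-49746298) and Ogn (chr13:49761349-49780412) follow each other on the plus strand with gaps of 14.9 and 15.1 kb. Prelp (chr1:133837335-133857971, minus strand) and Fmod (chr1:133964992-133976015, plus strand) are 107.0 kb apart, and Bgn (chrX:72527208-72539541, plus strand) stands alone. Cenpp, a centromere protein gene on the opposite strand, spans Aspn, Omd and Ogn and shares 9.12% of the exon bases of Aspn, 18.83% of those of Ogn and none of those of Omd.

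RefSeq promoter sequences on GRCm38.p6 were given for 6 of the 8 genes, and each matched GRCm39 exactly at 1 place. Dcn and Lum had no entry. The 100 bases before the start are shown for the 4 genes in which they overlap no annotated exon, to set Omd, which was not called, beside 3 genes that were called higher. The start is that of RefSeq, which for Aspn lies downstream of the first base annotated for the gene, so that the Aspn window is inside the gene and outside its annotated exons. They are written 5′ to 3′ on the strand of the gene. Capitals mark the GC box letters GGGCGG or their reverse CCGCCC, which overlap each other next to the start of Bgn.
Aspn (chr13:49697819-49697918, plus strand): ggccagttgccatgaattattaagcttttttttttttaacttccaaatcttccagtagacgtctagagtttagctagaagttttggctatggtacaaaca
Omd (chr13:49735838-49735937, plus strand): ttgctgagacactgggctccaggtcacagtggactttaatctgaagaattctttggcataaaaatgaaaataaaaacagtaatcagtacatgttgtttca
Fmod (chr1:133964892-133964991, plus strand): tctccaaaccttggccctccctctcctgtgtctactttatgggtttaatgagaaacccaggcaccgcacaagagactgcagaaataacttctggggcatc
Bgn (chrX:72527107-72527206, plus strand): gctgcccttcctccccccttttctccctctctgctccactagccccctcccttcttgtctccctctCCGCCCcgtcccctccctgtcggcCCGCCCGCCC
The Bgn window held 71.0% G and C, against 35.0% in Aspn, 36% in Omd and 50% in Fmod. Over the 250 bases before the start and on both strands, GGGCGG was in 1 of the 6 promoters, that of Bgn, and in 32.7% of all 32851 promoters of the table. The TATA box letters TATAAA were in 2 of the 6, Aspn and Ogn, and in 12.4% of all. The TCF/LEF letters CTTTGA were in 2 of the 6, Omd and Bgn, and in 13.8% of all, and the AP-1 letters TGANTCA were in none of the 6 and in 6.75% of all. These matches describe the letters of the windows only, and promoter activity was not measured.

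Each library held between 7040032 and 11696457 counts. Dab2 itself had more reads in libraries with the Dab2-cKO label, at 1434.2, 1300.2 and 1389.5 normalized counts against 338.5, 332.2 and 309.3 in those labelled WT (log2 fold change 2.08 ± 0.08 (SE), adjusted p = 3.04e-34 by edgeR's quasi-likelihood test with Benjamini-Hochberg adjustment). This goes against the label of a knockout, although counts over the whole gene do not resolve the floxed exons, and the count columns taken as Dab2-cKO are headed FL-FL, so every direction below is that of the libraries so labelled. A normalized count here is a read count put on the scale of an average library, using each library's TMM-corrected size. Mitochondrial genes took 13 to 14.4% of the counts in WT and 19.1 to 20.3% in Dab2-cKO. Of the 12 hair matrix, shaft and inner root sheath markers, all 12 were lower in Dab2-cKO, with a median log2 fold change of -6.66, and those with the highest levels were Tchh (-6.74) and Krt71 (-6.94).

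Of the 8 proteoglycan genes, 7 were called higher in the libraries labelled Dab2-cKO and 0 lower, at an adjusted p under 0.05 in edgeR's quasi-likelihood test over all 32149 genes that passed the filter on low counts. In that test 16.8% of all genes were called higher and 11.5% lower. All 8 genes passed the filter. Their median log2 fold change was 1.43, against -0.023 over all genes tested. In the same 7 genes every Dab2-cKO library lay above every WT library, as in 20.6% of all genes tested. Over all genes the split was 5387 higher to 3682 lower. It moved to 4281 to 5561 with upper-quartile scaling and to 2686 to 11168 with library size only, which shifted the median of all genes to -0.17 and -0.45 and that of the 8 proteoglycans to 1.29 and 1.00. The calls of the 8 genes were the same under these scalings, though not their sizes.

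**Figure D1:**
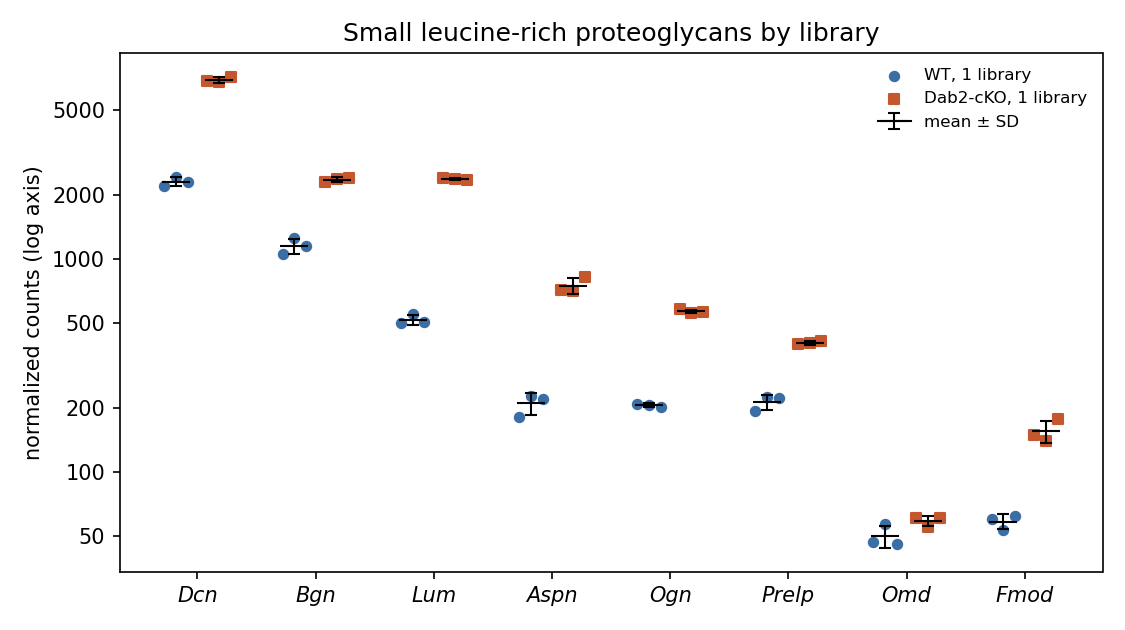
Normalized counts (log axis) of the 8 proteoglycan genes, 1 point per library, with the mean and SD of the 3 libraries of each genotype. The libraries of WT and Dab2-cKO overlap in Omd alone, and Dcn reaches between 6732.3 and 7149.7 in Dab2-cKO.

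Among class I, Dcn, which binds collagen and TGF-β, had 2201.2, 2418.6 and 2280.4 normalized counts in WT and 6786.8, 6732.3 and 7149.7 in Dab2-cKO. The 3 libraries of each genotype lay close together and far from those of the other. Dcn was thus 2.99-fold higher in Dab2-cKO, with a 95% interval from 2.72 to 3.29 (log2 fold change 1.58 ± 0.07 (SE), edgeR adjusted p = 6.13e-31). Bgn, the closest relative of Dcn, had 1054.4, 1245.8 and 1143.2 normalized counts in WT and 2286.7, 2370.3 and 2392.8 in Dab2-cKO. Its genotypes did not overlap, and its rise of 2.05-fold (95% interval 1.86 to 2.25, edgeR adjusted p = 1.5e-20) was smaller than that of Dcn. The Bgn to Dcn count ratio, which no scaling of libraries can move, went from 0.479, 0.515 and 0.501 in WT to 0.337, 0.352 and 0.335 in Dab2-cKO, with no overlap.

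Aspn, which binds collagen and, unlike most of the family, has a stretch of aspartate residues, had 181.5, 228.4 and 219.6 normalized counts in WT and 713.3, 703.0 and 821.1 in Dab2-cKO. Replicate 1 was the lowest WT library and replicate 3 the highest Dab2-cKO library, without overlap. It was 3.54-fold higher in Dab2-cKO, with an interval from 3.1 to 4.03 (log2 fold change 1.82 ± 0.10 (SE), edgeR adjusted p = 1.46e-26).

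Among class II, Lum, a keratan sulphate proteoglycan that binds collagen fibrils, had 501.0, 550.7 and 503.2 normalized counts in WT and 2380.2, 2376.0 and 2339.8 in Dab2-cKO. The Dab2-cKO libraries differed from each other by less than the WT libraries did. Lum had the largest rise of the 8 genes, 4.56-fold, with an interval from 4.13 to 5.04 (log2 fold change 2.19 ± 0.07 (SE), edgeR adjusted p = 1.16e-37). The rises of Dcn and Lum, which lie side by side, were unequal, since the Lum to Dcn count ratio went from 0.228, 0.228 and 0.221 to 0.351, 0.353 and 0.327.

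Fmod, a close relative of Lum that binds the same collagen site and guides cross-linking, had 60.1, 53.3 and 62.4 normalized counts in WT and 148.8, 140.4 and 176.6 in Dab2-cKO. It was low in all 6 libraries, with 54 to 160 reads, and the genotypes did not overlap. It was 2.65-fold higher in Dab2-cKO, with a wide interval from 2.09 to 3.34 (edgeR adjusted p = 1.84e-10). Prelp, which links collagen to heparan sulphate of basement membranes, had 193.7, 224.8 and 221.3 normalized counts in WT and 396.7, 402.7 and 410.6 in Dab2-cKO. It had the smallest of the 7 rises, 1.88-fold, with an interval from 1.63 to 2.18 (edgeR adjusted p = 2.64e-11). Of its exon bases, 4.98% are shared with the antisense RNA gene Gm15851, which had 5 to 20 reads per library and was not tested.

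Omd, a keratan sulphate proteoglycan known from bone, was the exception. It had 46.8, 56.9 and 46.1 normalized counts in WT and 61.0, 55.2 and 60.7 in Dab2-cKO. WT replicate 2 lay above Dab2-cKO replicate 2, so that the genotypes overlapped. The difference was 1.18-fold and was not called (log2 fold change 0.24 ± 0.23 (SE), edgeR adjusted p = 0.525, exact 2-sided permutation p = 0.2, where the smallest possible p is 0.1). With 42 to 64 reads per library, the 95% interval ran from 0.863 to 1.62-fold, which includes no change and a moderate rise. With library size only, its log2 fold change was -0.18 in place of 0.24.

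Ogn, the class III member, which acts in collagen fibril assembly, had 209.3, 206.7 and 201.6 normalized counts in WT and 578.8, 556.9 and 562.9 in Dab2-cKO. Both groups of libraries were tight and apart. It was 2.75-fold higher in Dab2-cKO, with an interval from 2.41 to 3.14 (log2 fold change 1.46 ± 0.10 (SE), edgeR adjusted p = 3.1e-21). Omd lies between Aspn and Ogn, and its count ratios to them parted the genotypes. Aspn had 3.88, 4.02 and 4.76 reads per read of Omd in WT and 11.7, 12.7 and 13.5 in Dab2-cKO. Ogn had 4.48, 3.63 and 4.37 reads per read of Omd in WT and 9.48, 10.1 and 9.27 in Dab2-cKO. Cenpp, whose exons overlap those of Aspn and Ogn on the other strand, had 43 to 76 reads per library and a log2 fold change of -0.10 ± 0.22 (SE), and it was not called (edgeR adjusted p = 0.815). The strand setting of the counting is not given in the sources used here, so reads of the shared exon bases cannot be told apart.

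**Figure D2:**
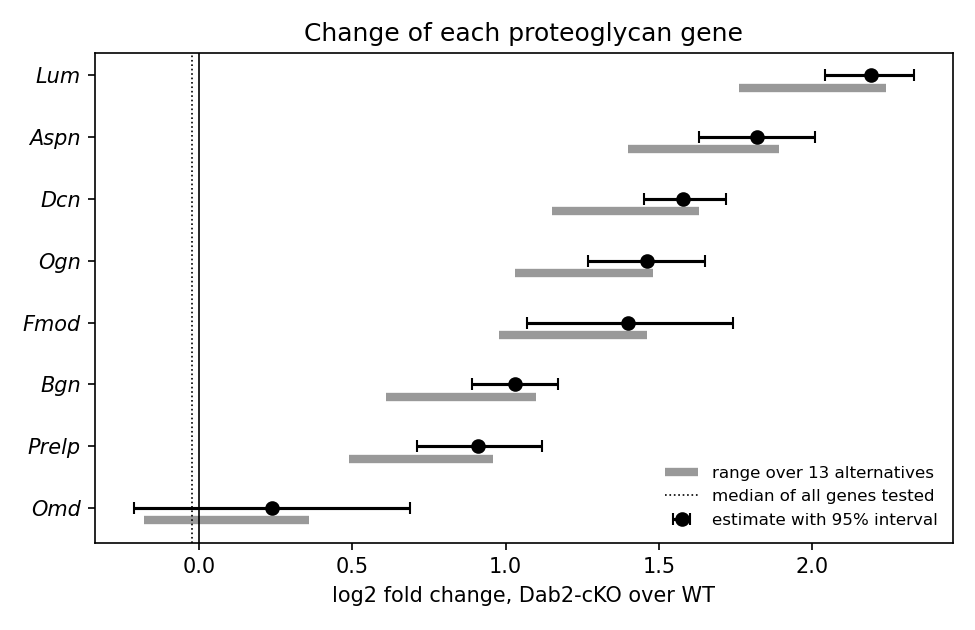
Log2 fold change (Dab2-cKO against WT) for each gene, with its 95% interval (black) and the range of the estimate over 13 alternatives of processing (grey). The interval of Omd alone includes 0, and the estimates of the others run from 0.91 in Prelp to 2.19 in Lum.

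The ratio of each gene to Dcn was compared between the genotypes for all of the other 7 genes. Libraries of the genotypes did not overlap for 6 of them, where the exact 2-sided permutation test gave its smallest p of 0.1 (0.117 after Benjamini-Hochberg adjustment over 7), and Fmod overlapped (exact p = 0.2). Dcn itself was 2.99-fold higher with tight libraries, so the ratio to Dcn tends to part the genotypes for any gene with another change. The share of all genes for which it did was not computed, and this count does not single out these genes. Relative to Dcn, the log2 ratio was 0.61 higher in Dab2-cKO for Lum and 0.25 higher for Aspn. It was -0.55 for Bgn, -0.66 for Prelp, -1.34 for Omd, -0.12 for Ogn and -0.18 for Fmod, as the difference of Dab2-cKO minus WT. Lum and Bgn had similar normalized counts in Dab2-cKO but not in WT. The Lum to Bgn count ratio was 0.475, 0.442 and 0.44 in WT and 1.04, 1.0 and 0.978 in Dab2-cKO.

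Levels of different genes were set against each other as normalized counts per kb of annotated exon. In WT the level was 176.5 ± 8.44 for Dcn, 170.0 ± 14.2 for Bgn, 80.79 ± 4.37 for Lum and 71.69 ± 8.52 for Aspn (mean ± SD, n = 3). Dcn and Bgn overlapped between WT libraries. Within each WT library Dcn was the higher, at 168.9 against 156.1, 185.6 against 184.5 and 175.0 against 169.3. Each lower pair of neighbours in the order did not overlap between libraries, Lum and Aspn by a narrow gap between 78.09 and 78.03. The level was 33.56 ± 0.637 for Ogn, 30.33 ± 2.42 for Prelp, 20.5 ± 2.47 for Omd and 14.85 ± 1.2 for Fmod. For comparison, 1521 chemosensory receptor genes, most of which are known from sensory neurons, had a median of 4.94 and a 95th percentile of 11.8. All 8 genes lay above that percentile in both genotypes, and Fmod in WT came closest, at 1.25 times, with 2.63% of the receptor genes at or above it.

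In Dab2-cKO the order of the levels per kb was Dcn at 528.6 ± 17.4, Lum at 368.7 ± 3.46, Bgn at 348.0 ± 8.27 and Aspn at 254.8 ± 22.4 (mean ± SD, n = 3). Then came Ogn at 92.29 ± 1.85, Prelp at 57.36 ± 0.989, Fmod at 39.34 ± 4.8 and Omd at 24.22 ± 1.34. No neighbours in this order overlapped between libraries. Lum had passed Bgn, though by 1.06 times only, and Fmod had passed Omd by 1.62 times. With the length of the longest transcript in place of all exons, 4 of the 8 genes kept their place in the WT order and 6 of 8 in the Dab2-cKO order, with Bgn above Dcn in WT and above Lum in Dab2-cKO.

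**Figure D3:**
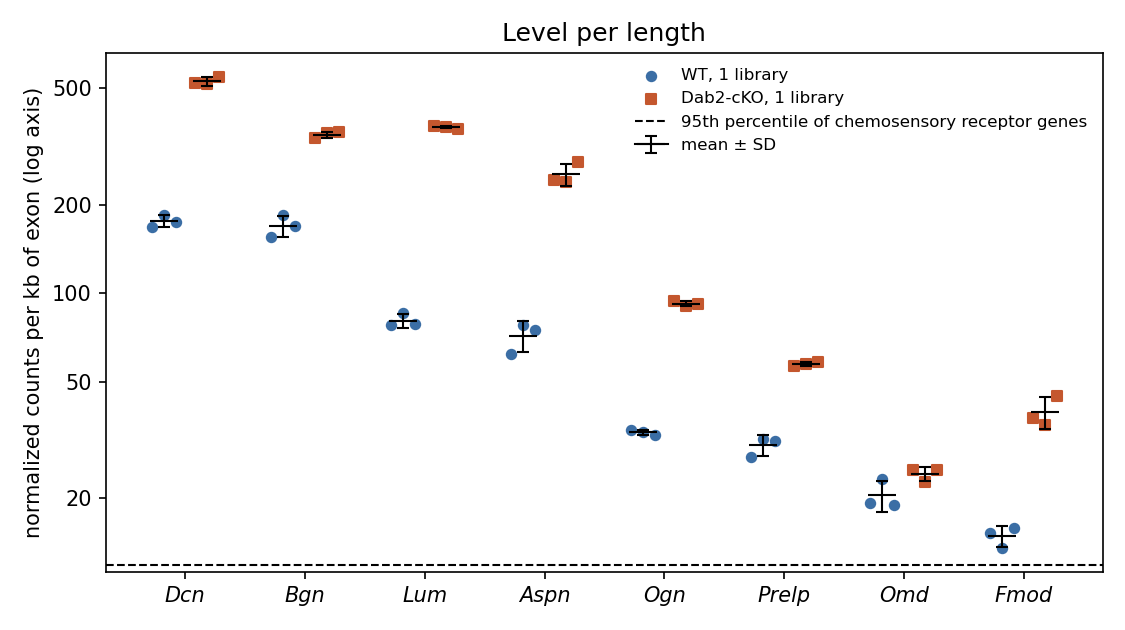
Normalized counts per kb of exon (log axis) of the 8 genes, 1 point per library, with mean and SD, and the 95th percentile of chemosensory receptor genes (11.8, dashed). Genes are in the order of their WT level, which Lum and Fmod leave in Dab2-cKO.

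The 8 genes together took 0.0575% ± 0.000782 of all counts in WT libraries (SD, n = 3) and 0.123% ± 0.00369 in those of Dab2-cKO. Their summed level per kb was 598.2 ± 37.6 in WT and 1713 ± 47.4 in Dab2-cKO. Within this sum the share of Dcn was 29.5% ± 0.5 in WT and 30.9% ± 0.181 in Dab2-cKO. Bgn held 28.4% ± 0.584 of the sum in WT and 20.3% ± 0.453 in Dab2-cKO, whereas Lum held 13.5% ± 0.387 and 21.5% ± 0.784. The share of Aspn was 12% ± 0.805 in WT and 14.9% ± 0.881 in Dab2-cKO, and none of these 4 shares overlapped between the genotypes. Prelp and Omd had lower shares in Dab2-cKO, at 3.35% against 5.07% and 1.41% against 3.42%, while those of Ogn and Fmod overlapped.

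**Figure D4:**
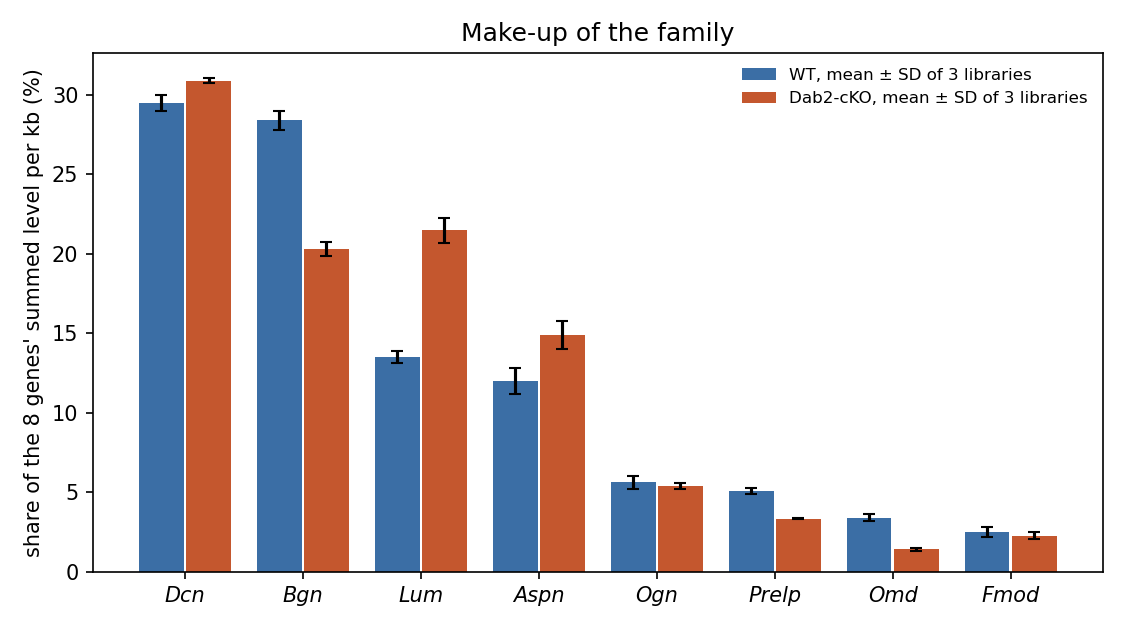
Share (%) of each gene in the summed level per kb of the 8 genes, as mean and SD of 3 libraries per genotype. Bgn has 28.4% in WT and 20.3% in Dab2-cKO, and Lum 13.5% and 21.5%.

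The other genes of the family were counted in the same fit. Of 9 tested, 3 were called higher and 0 lower, with a median log2 fold change of 0.33. Ecm2, the neighbour of Aspn, had 303.6 normalized counts in WT and 951.1 in Dab2-cKO (log2 fold change 1.65 ± 0.09 (SE), edgeR adjusted p = 1.26e-26), and Podn, whose protein binds collagen, had 160.9 and 493.9 (1.62 ± 0.11, edgeR adjusted p = 8.66e-22). Kera, the cornea proteoglycan next to Lum, was called with a log2 fold change of 0.93 ± 0.33 (SE) (edgeR adjusted p = 0.0249), but its normalized counts were 64.8, 21.9 and 34.2 in Dab2-cKO against 22.3, 17.2 and 24.8 in WT. Without Dab2-cKO replicate 1 its log2 fold change was 0.37 and without WT replicate 2 it was 0.80, and in neither case was Kera called (edgeR adjusted p = 0.589 and 0.123), nor was it with DESeq2, upper-quartile scaling, library size only or a replicate block. Optc, next to Prelp, was not called, at 41.7 normalized counts in WT and 52.3 in Dab2-cKO.

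The collagens that these proteins coat were measured in the same fit. Of 11 chains of fibrillar and fibril-associated collagens, 10 were called higher and 1 lower, with a median log2 fold change of 1.44. Col1a1, the chain of type I collagen with the highest level per kb of the list, had a log2 fold change of 1.56 ± 0.07 (SE) and Col3a1, of type III collagen, one of 1.98 ± 0.07 (edgeR adjusted p = 3.1e-31 and 6.13e-37). Col12a1, a fibril-associated collagen, fell by 0.28 on the log2 scale (edgeR adjusted p = 0.00104). Dcn had 5.33, 4.76 and 4.95 normalized counts per 100 of Col1a1 in WT and 5.1, 4.86 and 5.25 in Dab2-cKO, so that the genotypes overlapped. Per 100 of Col3a1, Dcn had 7.21, 6.57 and 6.77 in WT and 5.27, 4.88 and 5.41 in Dab2-cKO, without overlap. Bgn had 2.49 ± 0.0515 per 100 of Col1a1 in WT and 1.73 ± 0.0239 in Dab2-cKO, and Lum had 1.13 ± 0.072 and 1.74 ± 0.0411 (SD, n = 3), both without overlap and in opposite directions. Against Col3a1 the ratio in Dab2-cKO was 0.519 times that of WT for Bgn, 0.666 times for Fmod and 1.15 times for Lum, none with overlap, while Fmod against Col1a1 overlapped (0.889 times).

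Of 8 collagen cross-linking enzymes, 5 were called higher and 1 lower, with a median of 0.89. Loxl1, a lysyl oxidase, had the largest rise (log2 fold change 2.17 ± 0.12 (SE)), Loxl2 had the highest level per kb (1.30 ± 0.08), and the lysyl hydroxylase Plod2 fell by 0.60 on the log2 scale. Of 11 proteases and enhancers that process or cleave proteoglycans, 9 were called higher and 0 lower, with a median of 1.12, led by Mmp2, a gelatinase that cleaves decorin (1.81 ± 0.08 (SE)).

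The enzymes that build the sugar chains had smaller median changes than the 8 proteoglycans. Of 8 genes for the linker of the chains, 5 were called higher and 1 lower, with a median log2 fold change of 0.37. The xylose kinase gene Fam20b had 0.47 ± 0.08 (SE) and the glucuronyltransferase gene B3gat3 0.68 ± 0.16, while the galactosyltransferase gene B3galt6 fell by 0.94 on the log2 scale. Of 16 chondroitin and dermatan sulphate enzymes, 7 were called higher and 1 lower, with a median of 0.37. Among them were the epimerase-like gene Dsel (0.63 ± 0.10), the sulphotransferase gene Chst15 (1.03 ± 0.11) and Csgalnact1, which starts chondroitin chains and fell by 1.09 on the log2 scale. Of 10 keratan sulphate and sulphate supply genes, 4 were called higher and 0 lower, with a median of 0.32, and Chst1, a keratan sulphotransferase gene, had the largest rise (1.10 ± 0.22). With library size only, 0 linker genes were called higher, and neither Fam20b nor B3gat3 nor Dsel was called. Papss1, the sulphate donor enzyme with the highest level of its list, had a log2 fold change of -0.14 ± 0.09 and was not called, whereas it was called lower with upper-quartile scaling (-0.29), library size only (-0.57) and a mean count of at least 50 (-0.23).

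The growth factors and receptors that family members bind went both ways. Of 15 tested, 8 were called higher and 4 lower, with a median of 0.43. Kdr, the VEGF receptor that decorin binds, had the largest rise (log2 fold change 1.82 ± 0.09 (SE)), Itgb1, an integrin chain, had the highest level per kb (0.83 ± 0.07), and Bmp2 fell by 0.91 on the log2 scale. Of 20 proteoglycans of other families, 5 were called higher and 5 lower, with a median of 0.02. Sdc3, a syndecan, had 1.68 ± 0.10, while Sdc1, the syndecan of keratinocytes, fell by 0.88 and Acan by 1.18 on the log2 scale. Over these 9 lists of 108 genes, 56 were called higher and 13 lower by edgeR's quasi-likelihood test. Over all genes tested 16.8% were called higher and 11.5% lower, so with this filter the part of the lists called lower was near that of all genes. Calls were more frequent among genes with more reads. With a mean count of at least 50, of 14801 genes 4461 were called higher and 4062 lower. Of the lists, at most 108 genes, 54 and 15 were then called, so the part called lower was below that of all genes.

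**Figure D5:**
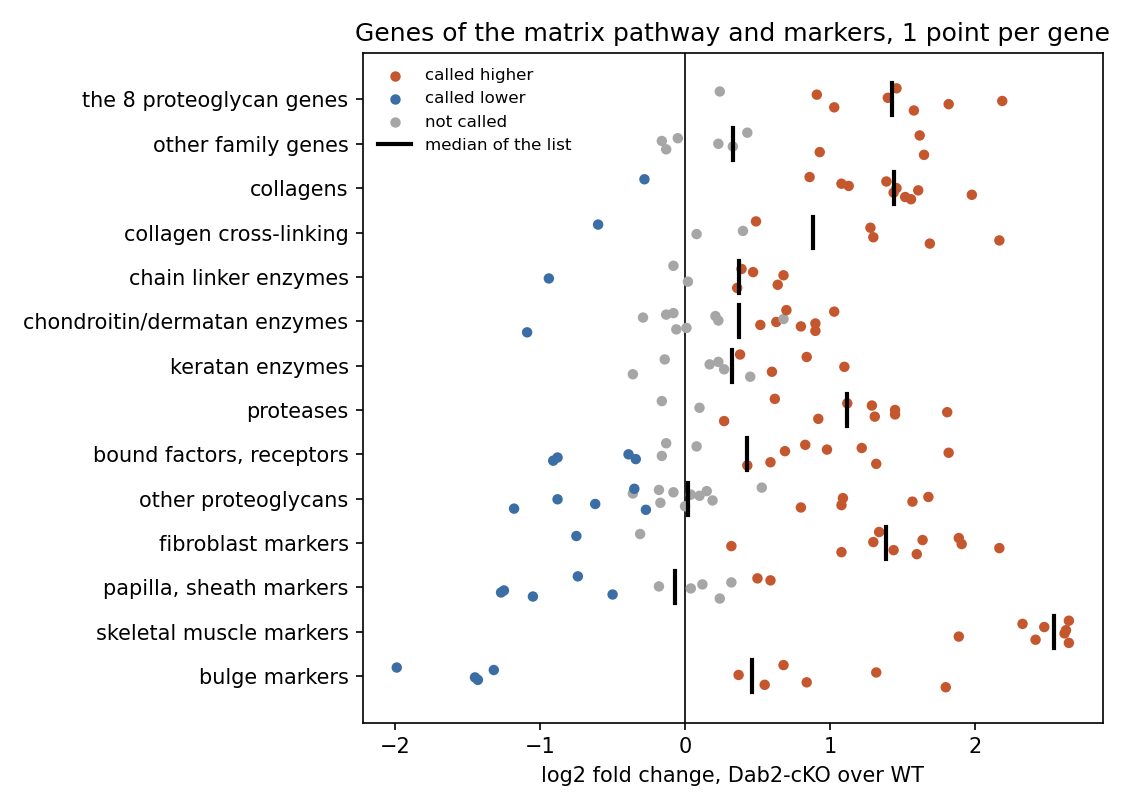
Log2 fold change (Dab2-cKO against WT), 1 point per gene, for the 8 proteoglycan genes, 9 lists of related genes and 4 marker lists. Points are coloured by the call at an edgeR adjusted p under 0.05, and black bars are list medians, 1.43 for the 8 genes, 1.44 for collagens and 2.55 for skeletal muscle markers.

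Markers of fibroblasts and of several other cell types outside the sorted population moved with the proteoglycans. Those of dermal papilla and sheath did not. Of 12 fibroblast markers, 10 were called higher and 1 lower, with a median log2 fold change of 1.39, and their summed normalized counts were 3687 to 4035 in WT and 9528 to 9780 in Dab2-cKO. Their genes with the highest levels were Clec3b (1.89 ± 0.09 (SE)) and Mfap4 (1.91 ± 0.09), both matrix genes. Of 12 dermal papilla and sheath markers, 2 were called higher and 5 lower, with a median of -0.07, and their sums were 2173 to 2271 and 2233 to 2266. Those with the highest levels were Enpp2 (0.59), which was not called with library size only, and the Wnt inhibitor gene Wif1 (-1.27). Markers of other dermal and subdermal cells were called higher in 8 of 8 for pericytes and smooth muscle (median 1.48), 8 of 8 for endothelium (1.72), 7 of 8 for immune cells (1.77), 8 of 8 for skeletal muscle (2.55) and 6 of 7 for adipocytes (1.51). The markers with the highest levels in these lists, with their log2 fold changes, were Des (2.47) and Acta2 (0.65) for pericytes and smooth muscle, Cdh5 (1.84) and Pecam1 (1.88) for endothelium, and Cd74 (2.23) and Lyz2 (2.53) for immune cells. The change of Des was nearer to the skeletal muscle median of 2.55 than to the median of its own list, 1.48. The cells that gave its reads were not tested. For skeletal muscle they were Acta1 (2.65) and Myh4 (1.89), and for adipocytes Cfd (2.19) and Fabp4 (0.94). The muscle sum was 19533 to 22674 in WT and 107947 to 110604 in Dab2-cKO. No marker of these lists was at 0 in all libraries. In bulk RNA, a change in the number of cells of a type and a change in RNA per cell cannot be told apart.

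Markers of keratinocytes moved less evenly. Of 10 bulge markers, 6 were called higher and 4 lower, with a median log2 fold change of 0.46 and sums of 7319 to 8190 in WT and 11272 to 11527 in Dab2-cKO. Of 7 basal keratinocyte markers, 5 were higher and 2 lower (median 0.62), and of 9 Schwann cell and melanocyte markers 3 were higher and 5 lower (median -1.50). The bulge markers with the highest levels went in opposite directions, with a log2 fold change of 0.84 ± 0.07 (SE) for the keratin gene Krt15 and -1.45 ± 0.08 for the transcription factor gene Sox9. The other 3 lower bulge markers were Lhx2 (-1.43), Lgr5 (-1.32) and Tbx1 (-1.99). The other higher ones were Cd34 (1.80), Nfatc1 (1.32), Fst (0.68), Itga6 (0.55) and Tcf7l1 (0.37). Cd34 and Itga6 are the genes of the sorting markers CD34 and α6-integrin. All of these were named after their values were seen. The basal keratin genes Krt14 and Krt5 had 0.85 and 0.62, and the melanocyte gene Dct had -1.50. The 2 lower basal markers were Cdh3 (-1.91) and Trp63 (-0.53), and the other higher ones were Col17a1 (1.01), Itgb4 (0.76) and Lamb3 (0.58). These other basal markers were also named after their values were seen.

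Per summed fibroblast marker, the 8 proteoglycans had 1.21, 1.24 and 1.26 normalized counts in WT and 1.4, 1.36 and 1.44 in Dab2-cKO, which did not overlap. The sum held Dpp4 and Fap, at 617.0 and 245.1 normalized counts in WT and 365.4 and 197.4 in Dab2-cKO. The 10 other markers were called higher. Including Dpp4 and Fap makes the sum rise less and each ratio in Dab2-cKO larger relative to WT. Ratios without them were not computed, so these values depend on the markers chosen. The ratio was 1.8 times as high in Dab2-cKO as in WT for Lum, 1.4 times for Aspn, 1.18 times for Dcn and 1.08 times for Ogn, and none of these overlapped between the genotypes. It was lower in Dab2-cKO for Bgn (0.808 times), Prelp (0.746 times) and Omd (0.467 times), also without overlap, and that of Fmod overlapped. The marker sum was tight within each genotype, so a ratio to it tends to part the genotypes for any gene with another change. The share of all genes for which it did was not computed, and the lack of overlap does not single out these genes. The same holds for the ratios to collagens. The part of these other cells in the differences of the proteoglycan genes was not tested.

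The 5 protein-coding genes whose pattern over the 6 libraries was most like that of Dcn were Elovl6, Fstl1, Atp1b2, Krtdap and Podn. Likeness was the root mean square difference of log2 normalized counts centred over the 6 libraries, among 10519 genes with a mean of at least 100. It was 0.0223 for Elovl6, a fatty acid elongase, 0.0326 for Fstl1, a secreted glycoprotein, and 0.0388 for Krtdap, a protein of differentiating keratinocytes. Podn, at 0.0402, is of the same wider family. Of the 8 genes described here, among those that reached this mean, Ogn was the closest to Dcn, at 0.0838, and Prelp the farthest, at 0.333. With 3 libraries per genotype this measure mostly ranks genes by how close their difference between genotypes was to that of Dcn.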

How the data were processed

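RNA of sorted HFSCs was sequenced in 3 WT and 3 Dab2-cKO libraries, as titled in the labels. The authors trimmed 150 bp paired-end reads (fastp 0.23.4), aligned them to GRCm39 (HISAT2 2.2.1) and deposited featureCounts 2.0.6 counts per gene without normalization; strand setting, multi-mapping reads, use of molecular identifiers and annotation release are not given in the sources used here. A deposited table of the authors' own DESeq2 comparison, holding fold changes, p-values and normalized counts, was not used. The count columns headed FL-FL were taken as Dab2-cKO.

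Counts were filtered by filterByExpr, scaled by TMM and compared with edgeR 4.0.16 (R 4.3.3) by the robust quasi-likelihood test, with Benjamini-Hochberg adjustment over 32149 genes. Genes at an adjusted p under 0.05 were called. The script was tested on simulated data in which few genes changed, equally up and down. How the scaling behaves when many genes change, as here, was not tested by simulation. Single values were compared by exact permutation over libraries. Exon lengths came from GENCODE on GRCm39 and promoters from RefSeq. The listed genes Ccn4, Itgam and Krt85 were matched by identifier, as their symbols differed or were doubled in the counts. Libraries of 7040032 to 11696457 counts limit the precision. The 95% intervals came from the estimate and standard error of the edgeR fit, which include the spread between libraries. They used a normal approximation, which makes no allowance for the small number of libraries. Replicates are called biological in the labels.

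The 8 genes, the lists of related genes and markers and the rule for named genes were chosen with earlier results of these data known. Named were all 8 genes, Dab2, overlapping and neighbouring genes, the 5 most like Dcn, the gene of each related list with the highest level and those with the largest called rise and fall, and the 2 markers of a list with the highest levels, of which 1 is not reported here. Alternatives were DESeq2 1.42.0, upper-quartile scaling, library size only, TMM without mitochondrial and the 100 most abundant genes, a minimum mean count of 50 or no filter, the replicate block, each library left out, and the longest transcript as length. Ratios to fibroblast markers and to collagens were chosen after seeing the data, as were the further fibroblast, bulge and basal keratinocyte markers named.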

Additional observations from a re-analysis of the deposited data

How the results depend on the processing

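In all 13 alternatives 7 of the 8 proteoglycan genes were called higher and 0 lower. Their log2 fold changes ranged over these alternatives from 1.15 to 1.63 for Dcn, 0.61 to 1.10 for Bgn, 1.40 to 1.89 for Aspn, 1.76 to 2.24 for Lum, 0.98 to 1.46 for Fmod, 0.49 to 0.96 for Prelp and 1.03 to 1.48 for Ogn, the lowest of each with library size only. Omd ranged from -0.18, with library size only, to 0.36, with edgeR or DESeq2 adjusted p from 0.401 to 0.807, and was never called. Leaving out 1 library gave 1.53 to 1.63 for Dcn, 2.16 to 2.24 for Lum and 0.19 to 0.36 for Omd. All genes called lower were 5561 with upper-quartile scaling and 11168 with no scaling beyond library size, which called 2686 genes higher and 30 of the pathway genes lower in place of 13. With the longest transcript as length, 4 of 8 genes kept their place in the WT order. Genes near the 8 changed sign while uncalled: Cenpp, from -0.24 to 0.01 when 1 library was left out, Optc -0.10 with library size only, and Atp2b3, at 0.11 otherwise, -0.31 with library size only, -0.03 with upper-quartile scaling and -0.05 to 0.26 when 1 library was left out. The cause of these changes was not tested. With a replicate block, 5347 genes were called higher and 3620 lower, and 7 of the 8 proteoglycans; same-numbered libraries correlated at 0.073, -0.014 and 0.059 over genes, so the numbers were not read as pairs. Depth limits Omd and Fmod the most, at 42 to 160 reads per library.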

Other observations

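Genes that border the proteoglycans but belong to other families did not share one direction. Btg1, a gene of growth control and the nearest protein-coding gene before Dcn at 856.6 kb, had a log2 fold change of -0.25 ± 0.07 (SE) and was called lower (edgeR adjusted p = 0.00401), although not without WT replicate 3, where its log2 fold change was -0.22 (edgeR adjusted p = 0.057). Nol8, a nucleolar protein gene after Ogn, had -0.38 ± 0.10 (edgeR adjusted p = 0.00215). Btg2, a relative of Btg1 that lies after Fmod, had 1.04 ± 0.08 (edgeR adjusted p = 3.05e-17). Haus7 and Atp2b3, on the sides of Bgn, were not called, at -0.11 ± 0.15 and 0.11 ± 0.17 (edgeR adjusted p = 0.675 and 0.717), and Haus7 was called lower, at -0.53, with library size only.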
